A study of Mus musculus with 2 samples.

Results

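The genes of cholesterol synthesis and its regulation were examined in RNA of the embryonic mouse forebrain. A fixed list of 28 genes was looked up by symbol among the 55536 genes of the deposited tables that use the GENCODE M21 annotation, and all 28 were found. The list holds 20 genes of the synthesis route, 5 genes of the sterol-sensing system and 3 genes that move cholesterol inside the cell. Polyadenylated RNA had been sequenced from forebrain of B6NCrl embryos of mixed sex at day 12.5, as a pair of biological replicates according to the labels. One library, here pool 1, came from 120 embryos, and the other, pool 2, from 68, and each used 10 ng of RNA. Both pools share age, strain and tissue, and no treatment, transgene or mutation is given for either. With a single group and no contrast, the question is how strongly this tissue expressed the route, and how far the pools differed. No test was run, since with 2 pools no exact test could reach 0.05.

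Cells build cholesterol from acetyl-CoA through mevalonate and isoprenoid units, then squalene and lanosterol, and a set of late enzymes turns lanosterol into cholesterol. When membrane sterol is low, the escort protein Scap carries SREBP transcription factors from the endoplasmic reticulum to the Golgi, where proteases free them, and Insig proteins hold Scap back when sterol is high. SREBPs act at gene promoters together with NF-Y, which binds CCAAT boxes, and Sp1, which binds GC boxes. The brain makes most of its own cholesterol, because circulating lipoproteins do not cross the mature blood-brain barrier.

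Promoter windows are printed first because they show the range in the list: the gene with the highest level, the gene with the most NF-Y boxes, the regulators with more than 1 start, and a highly expressed gene with none. Each holds 250 bases before the start and 50 from it (RefSeq, GRCm38.p6), written 5′ to 3′ on the gene's strand. Capitals mark matches of 3 motifs on either strand, which do not overlap each other in these windows. The NF-Y box was searched as CCAAT, which reads ATTGG on the other strand. The GC box that Sp1 binds was searched as GGGCGG, which reads CCGCCC on the other strand. A partial sterol regulatory element was searched as TCACNCCAC, where N is any base. The windows lie at chr13:119690101-119690400 (+) for Hmgcs1, chr5:114444019-114444318 (+) for Mvk, chr17:12960676-12960975 (-) for Acat2, chr15:82147019-82147318 (+) for Srebf2, and chr5:28071162-28071461 (+) for Insig1. Both Srebf1 windows are on the minus strand, the upstream one at chr11:60220578-60220877 and the downstream one at chr11:60210422-60210721. The Insig2 windows are also on the minus strand, at chr1:121332540-121332839 for the far upstream start and chr1:121327975-121328274 for the start with most counts.
Hmgcs1: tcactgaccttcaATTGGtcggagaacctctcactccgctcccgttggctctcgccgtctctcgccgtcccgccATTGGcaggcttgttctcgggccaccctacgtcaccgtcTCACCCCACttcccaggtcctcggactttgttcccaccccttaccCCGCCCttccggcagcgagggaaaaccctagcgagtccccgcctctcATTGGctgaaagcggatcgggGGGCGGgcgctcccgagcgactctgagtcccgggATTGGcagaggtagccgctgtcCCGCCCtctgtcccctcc
Mvk: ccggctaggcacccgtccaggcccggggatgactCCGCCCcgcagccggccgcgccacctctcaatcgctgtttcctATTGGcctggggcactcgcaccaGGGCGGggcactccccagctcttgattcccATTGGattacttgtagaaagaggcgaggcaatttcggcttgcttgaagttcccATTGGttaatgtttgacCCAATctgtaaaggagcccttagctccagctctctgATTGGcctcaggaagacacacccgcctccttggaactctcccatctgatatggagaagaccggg
Acat2: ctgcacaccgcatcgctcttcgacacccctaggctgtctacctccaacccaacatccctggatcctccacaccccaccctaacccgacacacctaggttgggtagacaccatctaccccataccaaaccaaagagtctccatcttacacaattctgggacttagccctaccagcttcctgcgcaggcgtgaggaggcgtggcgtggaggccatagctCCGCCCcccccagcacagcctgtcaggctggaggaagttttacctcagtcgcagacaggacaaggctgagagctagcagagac
Srebf2: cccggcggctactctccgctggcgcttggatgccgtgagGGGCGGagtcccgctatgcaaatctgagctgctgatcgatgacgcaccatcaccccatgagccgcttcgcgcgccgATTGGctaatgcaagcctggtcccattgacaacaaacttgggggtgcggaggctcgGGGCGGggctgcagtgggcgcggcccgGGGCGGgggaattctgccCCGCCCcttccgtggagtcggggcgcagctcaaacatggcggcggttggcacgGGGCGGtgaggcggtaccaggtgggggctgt
Insig1: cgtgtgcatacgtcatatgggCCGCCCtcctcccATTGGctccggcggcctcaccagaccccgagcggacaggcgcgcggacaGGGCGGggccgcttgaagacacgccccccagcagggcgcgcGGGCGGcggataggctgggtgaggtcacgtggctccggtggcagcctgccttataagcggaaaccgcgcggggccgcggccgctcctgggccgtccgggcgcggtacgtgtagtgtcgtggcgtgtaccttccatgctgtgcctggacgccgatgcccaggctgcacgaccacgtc
Srebf1, upstream start: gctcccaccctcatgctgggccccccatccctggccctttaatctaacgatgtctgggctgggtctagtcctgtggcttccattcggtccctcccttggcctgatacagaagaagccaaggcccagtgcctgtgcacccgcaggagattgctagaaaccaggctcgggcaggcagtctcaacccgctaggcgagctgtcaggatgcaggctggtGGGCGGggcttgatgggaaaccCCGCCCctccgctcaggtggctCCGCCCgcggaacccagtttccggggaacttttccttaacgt
Srebf1, downstream start: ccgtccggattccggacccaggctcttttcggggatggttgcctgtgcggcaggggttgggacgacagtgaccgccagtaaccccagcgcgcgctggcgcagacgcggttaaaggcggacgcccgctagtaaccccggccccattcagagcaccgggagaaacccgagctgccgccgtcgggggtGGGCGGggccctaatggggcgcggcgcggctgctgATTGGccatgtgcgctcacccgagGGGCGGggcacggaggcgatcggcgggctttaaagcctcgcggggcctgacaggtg
Insig2, far upstream start: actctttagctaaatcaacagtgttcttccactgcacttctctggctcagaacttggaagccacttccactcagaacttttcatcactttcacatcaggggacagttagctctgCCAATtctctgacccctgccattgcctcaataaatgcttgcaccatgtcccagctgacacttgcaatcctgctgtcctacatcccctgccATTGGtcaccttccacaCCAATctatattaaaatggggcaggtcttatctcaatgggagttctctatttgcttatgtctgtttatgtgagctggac
Insig2, start with most counts: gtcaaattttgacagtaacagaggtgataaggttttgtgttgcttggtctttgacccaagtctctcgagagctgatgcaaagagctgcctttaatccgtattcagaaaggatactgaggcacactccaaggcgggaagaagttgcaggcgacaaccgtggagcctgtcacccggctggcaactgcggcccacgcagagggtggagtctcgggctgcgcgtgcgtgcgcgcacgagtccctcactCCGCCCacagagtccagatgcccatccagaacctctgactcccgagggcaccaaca

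All 28 genes were detected, that is, reached 1 TPM in both pools, against 58.9% of protein-coding genes and 27.8% of all genes. TPM is a transcript abundance corrected for length that sums to 1000000 per library. All 28 also reached 10 TPM in both pools, as did 40.2% of protein-coding genes, and 9 of 28 reached 100 TPM in both, against 7.34%. The median level of the 28 was 51.33 TPM in pool 1 and 51.25 TPM in pool 2. The median of the 12966 detected protein-coding genes was 21.9 TPM, which 23 of the 28 exceeded. The sum over the 28 genes was 2453 TPM in pool 1 against 2529 TPM in pool 2. The depth behind a gene ranged from 377 to 22295 estimated counts per pool, where the libraries held 33373843 (pool 1) and 34406648 (pool 2) counts over all genes. As these are bulk samples, fewer cells of a type and less RNA per cell cannot be told apart.

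**Figure D1:**
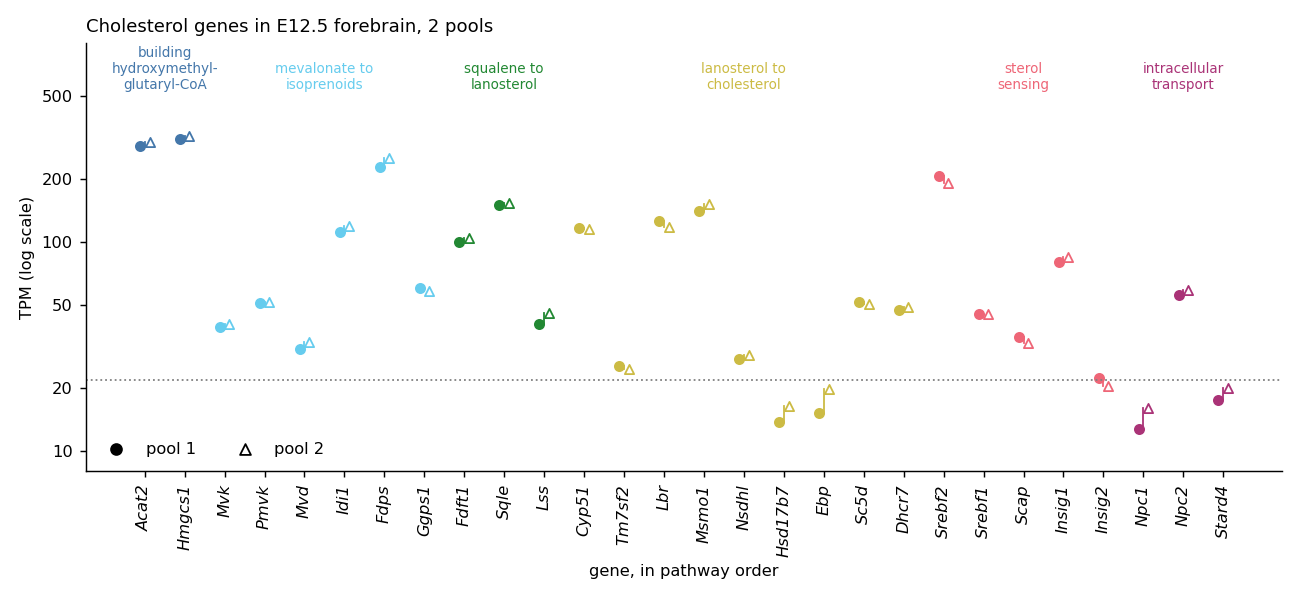
TPM of each of the 28 genes on a log axis, ordered by pathway step, with filled circles for pool 1 and open triangles for pool 2; the dotted line is the median of detected protein-coding genes, 21.9 TPM. Hmgcs1 and Acat2 stand highest at about 300 TPM, and Npc1, Hsd17b7, Ebp, Stard4 and Insig2 lie below the line by their mean.

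The enzymes that build hydroxymethylglutaryl-CoA were the highest of the list. Hmgcs1, the cytosolic synthase that joins acetyl-CoA to acetoacetyl-CoA (chr13:119690379-119708260, + strand), had 311 TPM in pool 1 and 321 TPM in pool 2, a mean of 316 ± 6.965 TPM (SD, n = 2, as for every ± below). Acat2, the cytosolic thiolase that makes acetoacetyl-CoA (chr17:12942890-12960747, - strand), had 289 and 303 TPM in pools 1 and 2, below Hmgcs1 in both. Acat2 has a close copy on the same chromosome, Acat3, which was given 37.8 and 43.1 of the estimated counts in pools 1 and 2, against 12948 and 14158 for Acat2. How reads were shared between these copies cannot be checked from the tables.

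Levels differed widely along the mevalonate and isoprenoid steps. The kinases and the decarboxylase that convert mevalonate were modest: mevalonate kinase Mvk had 39.2 TPM in pool 1 and 40.75 TPM in pool 2. Phosphomevalonate kinase Pmvk had 51.2 and 51.8 TPM, and the decarboxylase Mvd 30.6 and 33.4 TPM, in pools 1 and 2. The next enzymes were higher in both pools. Idi1, which interconverts the isoprenoid units isopentenyl and dimethylallyl diphosphate, had 112 TPM in pool 1 and 119.8 TPM in pool 2. Fdps, which makes farnesyl diphosphate, had 228 and 252 TPM and lay below only Hmgcs1 and Acat2 in both pools. Ggps1, which extends farnesyl to geranylgeranyl diphosphate for protein prenylation, had 60.45 TPM in pool 1 and 58.4 TPM in pool 2.

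At the branch point, Fdft1 (squalene synthase), which commits farnesyl diphosphate to sterols, stood above Ggps1. Fdft1 had 99.9 TPM in pool 1 and 104 TPM in pool 2. The log2 ratio of Ggps1 to Fdft1 was -0.78 ± 0.08, a ratio of 0.582. Over full-length coding transcripts, defined as those that code for at least 80% of a gene's longest coding sequence, this ratio was 0.443. Squalene epoxidase Sqle, which adds oxygen to squalene, had 151 and 154 TPM in pools 1 and 2. Lanosterol synthase Lss, which closes the rings, had a listed level of 40.4 TPM in pool 1 and 45.9 TPM in pool 2. Sqle exceeded Lss in both pools.

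The 9 enzymes between lanosterol and cholesterol had a sum of 565 TPM in pool 1 and 575 TPM in pool 2. They split into a high and a low set. Msmo1, the C4 methyl sterol oxidase, had 141 and 152 TPM in pools 1 and 2. Lbr, which is both a sterol C14 reductase and a protein of the inner nuclear membrane that binds chromatin, had 126 TPM in pool 1 and 118 TPM in pool 2. Cyp51, the lanosterol demethylase, had 117 and 115 TPM. These 3 genes lay above the other 6 in both pools. Sc5d, the lathosterol oxidase, had 51.4 and 50.7 TPM and Dhcr7, whose loss causes Smith-Lemli-Opitz syndrome in people, 47.5 and 48.9 TPM. Nsdhl, which works with Msmo1 in removing the C4 methyl groups, had 27.5 TPM in pool 1 and 28.8 TPM in pool 2. Ebp, the sterol isomerase, had 15.2 and 19.8 TPM, and Hsd17b7, the ketosteroid reductase of the same C4 steps, 13.8 and 16.35 TPM.

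Lbr and Tm7sf2 encode enzymes with the same C14 reductase activity. Tm7sf2 (chr19:6062821-6068373, - strand) had 25.6 TPM in pool 1 and 24.8 TPM in pool 2. Lbr (chr1:181815335-181843046, - strand) was 4.84-fold higher by the mean log2 ratio, 2.28 ± 0.03. The fold was 3.90 in the older GENCODE M4 tables and 7.36 over full-length coding transcripts, and Lbr was higher under all 3 measures. Tm7sf2 overlaps Vps51 on the same strand over 532 bases, and Vps51 had 55.2 and 51.7 TPM in pools 1 and 2, so some of its reads could belong to either gene.

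Among the genes of the sterol-sensing system Srebf2, which encodes the SREBP chiefly tied to cholesterol genes, was highest (chr15:82147181-82205379, + strand). Srebf2 had 206 TPM in pool 1 and 191 TPM in pool 2. It ranked behind only Hmgcs1, Acat2 and Fdps. Srebf1, whose product acts more on fatty acid genes (chr11:60199089-60222581, - strand), had 45.3 and 45.5 TPM in pools 1 and 2. The Srebf2 to Srebf1 fold was 4.38 (log2 2.13 ± 0.08), but 2.55 in the M4 tables, where Srebf2 had 122 and 117 TPM and rank 8. Short models held much of the Srebf2 TPM in the newer annotation. Srebf2-202, a model with 581 coding bases, held 49.0 TPM in pool 1 and 27.2 TPM in pool 2 on only 675 and 390 estimated counts, and the non-coding Srebf2-205 held 34.7 and 35.9 TPM. The full-length transcripts Srebf2-201 and Srebf2-203 together made 112 and 107 TPM in pools 1 and 2, which was 54.98% of the gene's TPM and 81.2% and 81.1% of its counts.

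The escort and its retention proteins were lower than Srebf2. Scap had 35.1 TPM in pool 1 and 32.8 TPM in pool 2. Insig1, itself a known SREBP target (chr5:28071363-28078662, + strand), had 80.03 and 85.2 TPM, and Insig2 (chr1:121304353-121332589, - strand) 22.3 and 20.4 TPM. The Insig1 to Insig2 fold was 3.87 (log2 1.95 ± 0.16), 3.73 in the M4 tables and 4.50 over full-length coding transcripts. Insig1 was higher in both pools under all 3 measures.

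The transport genes were the lowest group by their sum, 86.45 TPM in pool 1 and 94.85 TPM in pool 2. Npc2, the soluble lysosomal protein that hands cholesterol to Npc1, had 56.15 and 58.9 TPM. Npc1, the lysosomal membrane exporter, had 12.7 and 16.02 TPM, and the sterol carrier Stard4, another SREBP target, 17.6 and 19.95 TPM. Npc2 exceeded Npc1 by 4.03-fold (log2 2.01 ± 0.19), by 4.38-fold in the M4 tables and by 5.27-fold over full-length coding transcripts.

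Ranked by mean TPM, the 28 genes spanned 22.04-fold from Npc1 to Hmgcs1, and 17 of the 27 neighbouring pairs in that order were separate, meaning that both pools of the higher gene exceeded both of the lower. The top of the order, Hmgcs1, Acat2, Fdps, Srebf2 and Sqle, was separate at each step. The bottom, Stard4, Ebp, Hsd17b7 and Npc1, was not. The coefficient of variation over the pools ran from 0.312% for Srebf1 to 18.5% for Ebp, with a median of 3.75%.

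Several genes carried part of their TPM in short or non-coding models. The median share of a gene's TPM in full-length coding transcripts was 86.0%, and 13 of the 28 lay above 90%. The mean share was under 50% for Lss, at 43.4% in pool 1 and 36.4% in pool 2. It was also under 50% for Ebp, at 53.8% and 44.2%. For Lss the retained-intron model Lss-205 held 6.63 and 12.5 TPM on 45.9 and 90.1 estimated counts in pools 1 and 2, while the coding Lss-201 had 17.5 and 16.7 TPM on 1699 and 1687 counts. Its normalised gene count was higher in pool 1 (log2 0.11), although its TPM was lower there. In Npc1 the coding Npc1-201 had 10.5 TPM in pool 1 and 10.3 TPM in pool 2. In Hsd17b7 the leading Hsd17b7-201 had 8.93 and 8.64 TPM, so both full-length models differed less between the pools than the gene totals. Ebp-201 had 8.19 and 8.76 TPM in pools 1 and 2. In Msmo1 26.9% of the TPM was non-coding, with Msmo1-206 at 30.3 and 34.45 TPM.

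**Figure D2:**
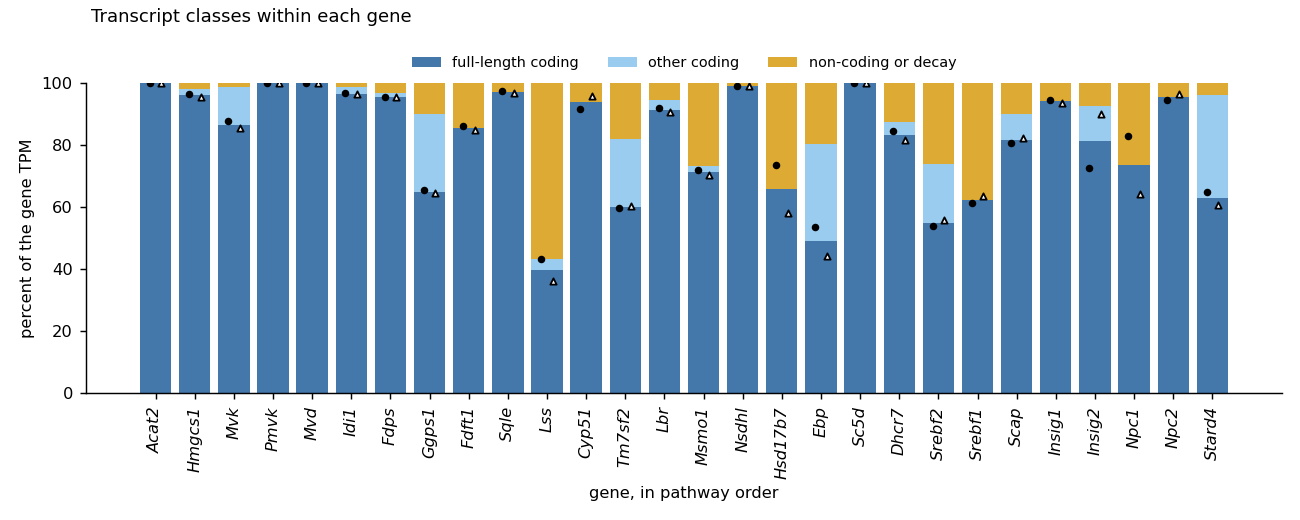
Share of each gene's TPM in full-length coding transcripts (dark blue), other coding transcripts (light blue) and non-coding or decay transcripts (yellow), as the mean of the pools; circles and triangles give the full-length share in pool 1 and pool 2. Lss and Ebp have the lowest full-length shares, 39.9% and 49.0%, and Acat2, Pmvk, Mvd and Sc5d are at 100%.

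Srebf1 has alternative starts, of which the upstream one gives the longer and more potent SREBP1 protein and the downstream one the isoform that predominates in adult mouse liver. Srebf1-201, from the upstream start, had 18.97 TPM in pool 1 and 18.73 TPM in pool 2 on 1692 and 1740 estimated counts. Srebf1-207, from the downstream start, had 7.81 and 8.51 TPM on 510 and 579 counts. The upstream start thus held 69.6% and 66.6% of the gene's counts in pools 1 and 2, and the downstream one 20.99% and 22.18%. Another RefSeq start further upstream held 2.52% and 2.11%, all in the non-coding Srebf1-204, which still amounted to 10.8 and 9.31 TPM because that model is short. Srebf1-207 is annotated without its 3′ end, so counts from the shared end of the gene may be placed unevenly between the models. As printed above, the upstream window holds 3 GC boxes and no NF-Y box, and the downstream one 2 GC boxes and 1 NF-Y box.

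Insig2 also has several RefSeq starts. The far upstream one, whose window holds 3 NF-Y boxes and no GC box, had 0 counts in both pools, while the start at base 121328024 held 691 and 649.8 counts, 83.8% and 77.2% of the gene in pools 1 and 2. A nearby start at base 121327678 held 118 and 186 counts, 14.3% and 22.1% of the gene, and 7.04 and 8.58 TPM, against 12.5 and 11.3 TPM at the start with most counts. The model of the start with most counts, Insig2-201, reaches further at the 3′ end than those of the nearby start. Counts from that stretch could be placed only in Insig2-201, so the count shares depend on model length as well as on start use. The windows of both starts with counts hold 1 GC box and no NF-Y box. A count of 0 allows up to 3 counts, or 0.0899 CPM (counts scaled to a library of 1000000) in pool 1 and 0.0872 CPM in pool 2, and covers counting error only. Pmvk likewise had 0 counts at its upstream start in both pools. All of its counts, 1189 and 1251 in pools 1 and 2, were assigned to the other start, at base 89459571. Most of them, 1143 and 1172, were of Pmvk-201, which began upstream of that base, at 89459118.

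RefSeq windows were found for 23 of the 28 genes, and none for Npc1, Fdft1, Fdps, Stard4 and Sqle. For each gene the leading window was that of the start with the most counts, with each transcript assigned to its nearest start within 500 bases. The NF-Y box occurred in 17 of 23 leading windows (73.9%), beside 39.4% of the 10011 leading windows of detected protein-coding genes. At least 2 were found in 11 of the 23 (47.8%), beside 15.4%. The GC box occurred in 21 (91.3%), beside 68.1%. The partial sterol element was found in Hmgcs1 alone (4.35%), beside 0.989%. None of the matches of these 3 motifs is counted as a binding site, and no binding was measured. Over all 31 windows of these genes the shares were 71.0%, 80.6% and 3.23% for the NF-Y box, GC box and sterol element, against 38.1%, 63.0% and 1.13% of the 13060 windows of detected protein-coding genes and 37.4%, 35.7% and 1.24% of all 32851 windows. Another 5 strings were searched over the same windows. The 3 longer sterol element forms, found in 0.0913%, 0.234% and 0.466% of all windows, were in 0 of the 31. The form TCACNTGA was in 3.23% of the 31, beside 4.18% of all windows. The E-box CANNTG was in 83.9%, beside 72.3%.

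Of the 38 NF-Y box matches in the leading windows, 35 began before the RefSeq start (92.1%) and 26 within 150 bases before it (68.4%), with a median position of -57.5. The shares were close to those of the 6290 matches in leading windows of detected protein-coding genes, 93.3% and 66.4%. For some genes the transcript with most counts began elsewhere. In Msmo1, Idi1 and Cyp51 it began upstream, at bases 64733792, 8885501 and 4104746, so all their boxes (3, 2 and 1) lay downstream of its start. In Hsd17b7 and Npc2 this held for the boxes at -12 and -6. In Hmgcs1 and Nsdhl it began downstream, so the boxes after the RefSeq start began before it. Positions from the transcripts' own starts were not counted. Mvk held 5, the most of the list, and Hmgcs1 and Nsdhl 4 each. In Hmgcs1 the sterol element began at -137, between an NF-Y box at -176 and a GC box at -92. The 6 genes with no NF-Y box in the leading window were Acat2, Pmvk, Dhcr7, Srebf1, Scap and Insig2. Acat2 was among them although only Hmgcs1 had a higher level. For Dhcr7 the leading window held only 9.21% and 5.84% of the gene's counts in pools 1 and 2, since its main transcript, Dhcr7-202, began at no RefSeq start used here. The nearest window, of a start 588 bases away, holds 2 NF-Y boxes and 3 GC boxes. For Pmvk the leading window, bases 89459321 to 89459620, lies downstream of base 89459118, where its main transcript, Pmvk-201, began. The stretch just before that base was therefore not searched. Of the 5 genes of the sterol-sensing system, Srebf2 and Insig1 had 1 NF-Y box each.

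**Figure D3:**
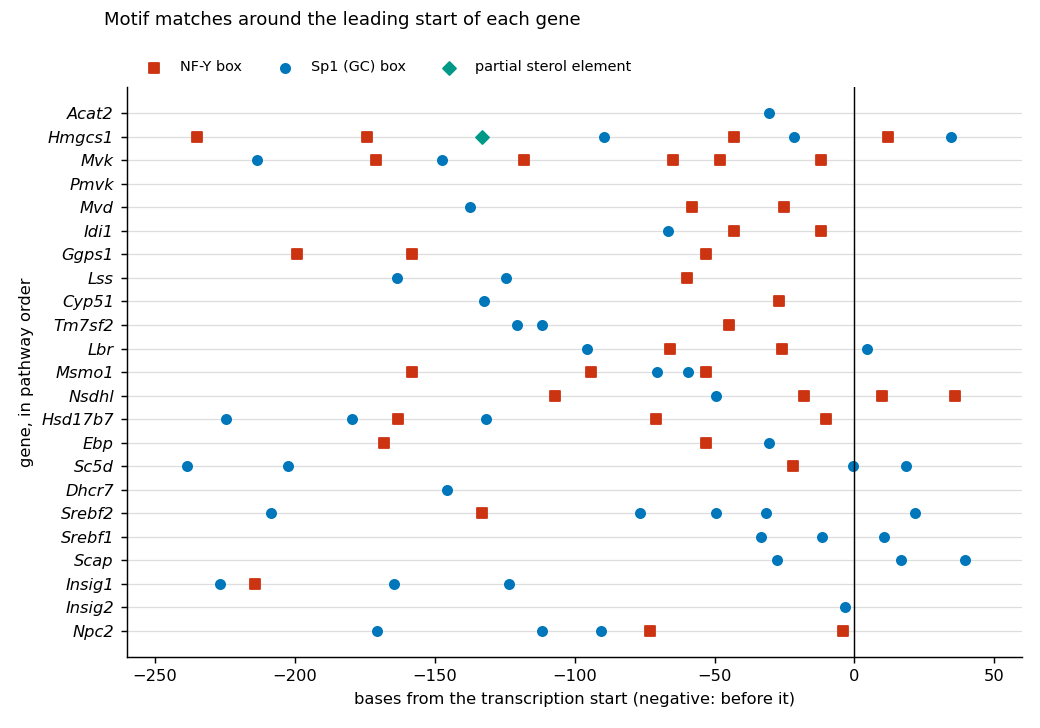
Position of each match of the 3 motifs in the leading window of 23 genes, in bases from the RefSeq transcription start, with squares for the NF-Y box, circles for the Sp1 (GC) box and a diamond for the partial sterol element. Of the 38 NF-Y boxes, 26 begin in the 150 bases before the RefSeq start (68.4%, beside 66.4% in detected protein-coding genes), and 6 genes have none.

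Some of these promoters lie between genes read in opposite directions. Mvk starts 209 bases from Mmab, a cobalamin gene read in the opposite direction that had 22.9 TPM in pool 1 and 20.3 TPM in pool 2. Nsdhl starts 146 bases from the centrin gene Cetn2, which had 83.8 and 80.9 TPM, and Npc2 starts 99 bases from the iron-sulphur gene Isca2, which had 112 and 119 TPM. Each NF-Y or GC box in the shared stretch belongs to both genes' upstream sequence. Expressed genes on the opposite strand overlap Cyp51 (Akap9, over 166 bases), Fdft1 (Ctsb, 774 bases), Ggps1 (Arid4b, 257 bases), Srebf1 (Rai1, 109 bases) and Npc1 (Rmc1, 967 bases). Genes at lower levels on the opposite strand overlap Lbr (Dnah14, 440 bases, 1.49 and 1.74 TPM) and Insig2 (Gm37174, 3058 bases, 1.45 and 1.41 TPM). Gm20388, also on the opposite strand, overlaps Mvd over its whole length, 9822 bases. It had 4.34 TPM in pool 1 and 0.01 TPM in pool 2. Gm48342 overlaps Hmgcs1 in the same way over 6190 bases and had 0.61 and 1.39 TPM. Opposite-strand genes under 1 TPM in both pools overlap Idi1, Lss, Scap and Npc1. Whether the counting used strand is not given, so reads in these overlaps cannot be assigned with certainty. On the same strand, Gm49502 overlaps Srebf2 over 2110 bases and had 5.71 and 4.74 TPM in pools 1 and 2. Gm26004 overlaps Lbr over 116 bases on the same strand and had 5.54 and 2.66 TPM.

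Srebf2 also carries a microRNA in an intron, Mir33, which is known to repress cholesterol export genes such as Abca1. Its mature arms are shown because they are products of the same locus, with the seed, bases 2 to 8, in capitals (RefSeq, GRCm38.p6, chr15:82198127-82198147 and chr15:82198167-82198188, + strand).
mmu-miR-33-5p: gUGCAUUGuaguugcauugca
mmu-miR-33-3p: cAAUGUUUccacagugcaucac
The Mir33 gene had 0 counts in both pools. Libraries of polyadenylated RNA above 200 bases do not measure mature microRNAs, so this says nothing of the level of either arm.

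Between the pools the 28 genes differed little. On normalised counts (pool 1 over pool 2, TMM scaling, a scaling to the bulk of genes) the log2 ratio ran from -0.25 for Ebp to 0.11 for Lbr, with a median of -0.03, beside -0.0026 over the 19063 genes whose mean count reached 10. No gene of the list was past 1.5-fold, where 3.26% of all genes were higher and 7.96% lower in pool 1. Among the 7864 genes in the same range of TPM, the background was 0.992% in either direction, so 0 of 28 lay near the background. The median absolute log2 ratio of the 28 was 0.06, beside 0.07 for genes in that range. With its sign, the median of genes in that range was 0.027, against -0.03 for the 28.

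A total of 18 genes were lower and 10 higher in pool 1, where 50.6% of all genes and 39.6% of genes in the range were lower. The split depended on the scaling: 17 lower and 11 higher with DESeq2 size factors, 22 and 6 with total counts, 20 and 8 with TPM, and 28 and 0 with ERCC spike-in totals. The spike-in scaling moved the median log2 ratio of all genes to -0.17 and that of the 28 to -0.19. Relative to the median of all genes, the 28 were at -0.03 under each count scaling. The exact 95% counting interval of the ratio lay below 0 for 7 genes and above 0 for 4. It lay below 0 for 15.2% and above 0 for 17.8% of all genes, and for 12.8% and 29.2% of genes in the range. It covers counting error only, and not the spread between embryos. Fdps had the next lowest ratio after Ebp, -0.15, from 5705 and 6649 estimated counts in pools 1 and 2, and Lbr the highest, from 8724 and 8506 counts.

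**Figure D4:**
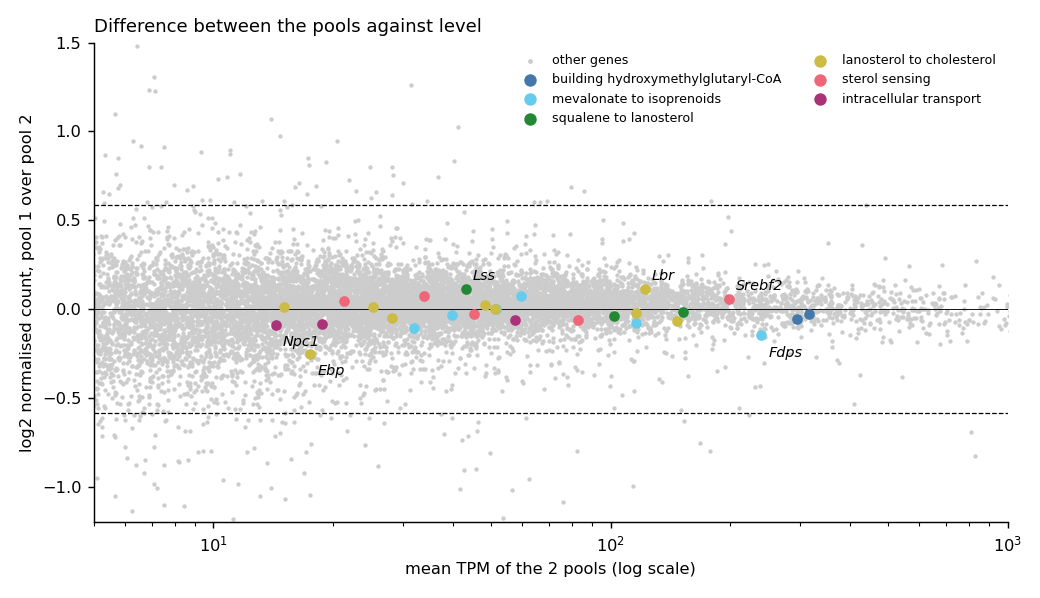
Log2 ratio of normalised counts, pool 1 over pool 2, against mean TPM on a log axis, for the 28 genes (coloured by step) and other genes (grey); dashed lines mark 1.5-fold, and genes beyond the axes are not drawn. All 28 lie between -0.25 and 0.11, inside both lines.

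The pools did differ in markers of other tissue. The 4 erythroid markers came to 5910 TPM in pool 1 against 7994 TPM in pool 2, and the 3 mesenchyme markers to 562 and 676 TPM, with all 7 lower in pool 1. The 5 forebrain markers came to 672 and 606 TPM, and of them Dlx2, a gene of the ventral forebrain, was past 1.5-fold higher in pool 1 (log2 0.66 with TMM scaling). Dlx1, also ventral, was higher in pool 1 (log2 0.52), while the dorsal genes Emx1 and Neurog2 and the broader Lhx2 had log2 ratios of -0.31, -0.04 and -0.20. The 3 radial glia markers came to 2113 and 1979 TPM and the 3 markers of postmitotic neurons to 1337 and 1229 TPM. Of the 5 liver markers, Alb, Fga and Cyp7a1 were at 0 in both pools and none was detected. Neither of the midbrain and hindbrain markers reached 1 TPM. Of these, En2 was at 0 in both pools, but En1 had 0.69 and 0.93 TPM on 37 and 52 counts in pools 1 and 2. What part these differences have in the ratios of the cholesterol genes was not tested.

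Genes that work beside the route were described from 7 further lists. The cofactor list, of electron donors to the sterol oxidases and the mitochondrial thiolase Acat1, had the highest median, 115 TPM over 6 genes, all detected. Pgrmc1, a heme protein that binds sterol P450 enzymes, had 330 TPM in pool 1 and 324 TPM in pool 2. Cyb5a had 133 and 129 TPM, Cyb5b 131 and 123 TPM, and the lowest were the P450 reductase Por, with 106 and 99.5 TPM, and Acat1, with 67.2 and 61.9 TPM.

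All 8 genes of SREBP processing and Insig-linked degradation were detected, with a median of 47.3 TPM. Vcp, the segregase that pulls ubiquitinated proteins from membranes, had 509.7 TPM in pool 1 and 501 TPM in pool 2. The ligase Rnf145 had 92.2 and 95.02 TPM. The proteases that cleave SREBPs differed, the site-1 protease Mbtps1 having 70.0 and 72.35 TPM and the site-2 protease Mbtps2, named after its values were seen, 19.76 and 19.85 TPM. The lowest of the list were Erlin1, with 16.4 and 17.5 TPM, and Rnf139, with 9.35 and 11.7 TPM.

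Fatty acid genes under SREBP control had a median of 59.9 TPM, with 11 of 11 detected. The desaturase Scd2 had 384 TPM in pool 1 and 368 TPM in pool 2, while its relative Scd1, the main liver form, had 8.30 and 8.44 TPM and was the lowest. Acly, which makes cytosolic acetyl-CoA from citrate, had 278 and 250.5 TPM, and the desaturase Fads1 had 152 and 146 TPM. Acss2, which makes acetyl-CoA from acetate, had 17.9 and 17.6 TPM. In the isoprenoid branch 13 of 14 genes were detected, with a median of 26.3 TPM. The prenyltransferase subunit Fnta had 62.7 and 71.6 TPM, the protease Rce1 49.2 and 45.3 TPM, and Dhdds, which makes dolichol precursors, 37.9 and 35.6 TPM. Nus1, its partner subunit, had 13.45 and 12.99 TPM, and Idi2, a relative of Idi1, had 0.02 and 0.04 TPM on 1 and 2 counts.

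The list of export, esterification and oxysterol genes had the lowest median, 4.99 TPM, with 11 of 12 detected. The liver X receptor Nr1h2 had 57.4 TPM in pool 1 and 56.9 TPM in pool 2, while the other receptor, Nr1h3, had 1.11 and 1.06 TPM. Cyp46a1, the cholesterol 24-hydroxylase of neurons, averaged 19.15 ± 0.21 TPM, and the esterifying enzyme Soat1 had 15.3 and 13.8 TPM. Soat2, its relative in gut and liver, had 0.04 and 0.06 TPM on 2 and 3 counts. Idi2 and Soat2 were too low for a ratio, and no other gene of these 7 lists was past 1.5-fold between the pools with TMM scaling.

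**Figure D5:**
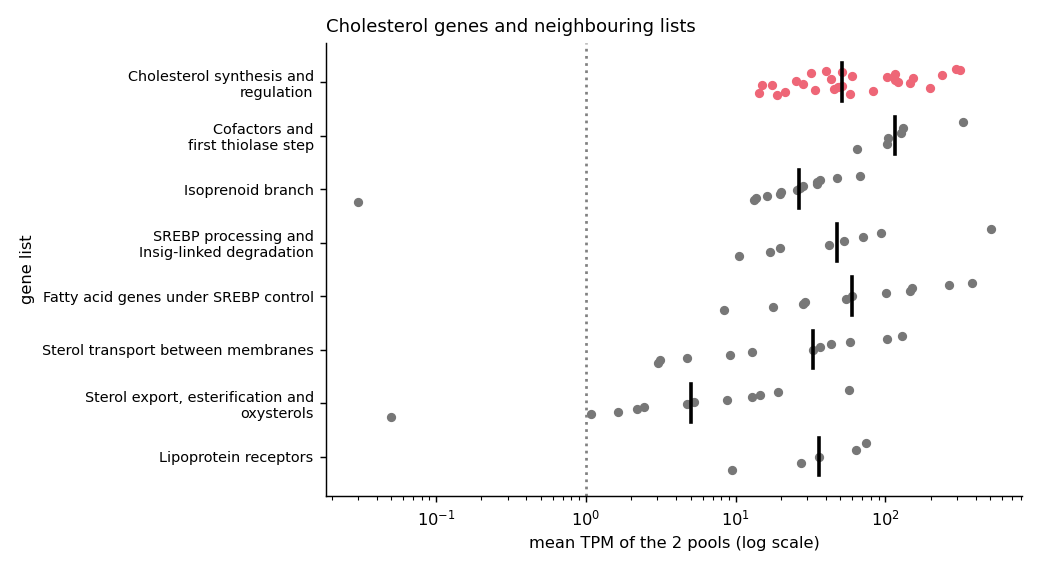
Mean TPM of each gene on a log axis for the 28 cholesterol genes (red) and 7 neighbouring lists (grey); black bars are medians and the dotted line is 1 TPM. The 28 lie between 14.4 and 316 TPM, and only Idi2 and Soat2 fall below 1 TPM.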

How the data were processed

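Each library has gene and transcript tables by the authors on mm10, under GENCODE M4 and M21. Their deposited expected counts estimate the reads of each feature without normalisation. Deposited TPM is scaled to 1000000 per library over all entries. The deposited posterior mean TPM was treated as a score. Aligner, quantifier and use of strand: not given in the sources used here.

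The M21 tables were the main ones. All 55536 gene identifiers matched the M21 annotation, as did 42462 of 43346 in the M4 tables. Numbered entries naming no gene held 5.74e-05% of counts in pool 1 and 9e-05% in pool 2 and were left out. Expected counts were rounded and TMM-normalised with edgeR 4.0.16 (mean count of at least 10, prior count 1, R 4.3.3), and the steps were tested on simulated data. DESeq2 1.42.0 size factors, spike-in totals, total counts and TPM were alternatives. Counting intervals are exact binomial intervals at 95%. Like the floors of 3 counts, they cover counting error alone, as amplified reads lack molecular identifiers. Promoter windows and microRNAs came from RefSeq (GRCm38.p6). In all, 8 letter strings were searched and 3 described. That choice, the assignment of transcripts to starts and the full-length class were settled after values were seen. Other tools were Python 3.11.15, numpy 2.4.6, scipy 1.17.1, pandas 2.3.3 and matplotlib 3.10.9.

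The 28 genes and the lists were chosen with earlier results of these data known. All 28 may be named, and of each further list the 3 highest and 2 lowest by mean TPM and any past 1.5-fold.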

Additional observations from a re-analysis of the deposited data

How the results depend on the processing

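All 28 genes stayed detected with the M4 tables and at 5 or 10 TPM, and none was past 1.5-fold under any scaling tried. Leaving out either pool could not lose a gene, since detection already required both pools. The median TPM was 55.1 with M4 and 50.3 with posterior means, and 51.25 to 51.33 when either pool was left out; the summed TPM then ran from 2453 to 2529. The median log2 ratio between the pools was -0.19 with spike-in totals, -0.0596 with total counts and -0.0587 with TPM + 1. The log2 ratio of Srebf2 to Srebf1 was 1.35 with M4 and ran from 2.07 to 2.19 over single pools. That of Lbr to Tm7sf2 was 1.97 (M4; 2.26 to 2.29 over pools), and the ratios over pools were 1.84 to 2.06 for Insig1 to Insig2, 1.88 to 2.15 for Npc2 to Npc1 and -0.84 to -0.72 for Ggps1 to Fdft1. Restricting to full-length coding transcripts, chosen after seeing the data, gave 1.95, 2.17, 2.88, 2.40 and -1.18 for Srebf2 to Srebf1, Insig1 to Insig2, Lbr to Tm7sf2, Npc2 to Npc1 and Ggps1 to Fdft1. With only the single longest coding sequence, also chosen later, these were 1.51, 2.17, 3.09, 2.40 and -1.18, and 7 genes in place of 2 had under 50% of their TPM in that class. The median coding share was 98.9% with M4 and 93.2% to 95.3% over pools. Single genes moved by more than their SD for 19 of 28 with M4, 18 with coding transcripts only and 8 with posterior means. CCAAT was in 16 of 22 leading windows (72.7%, beside 39.7%) with starts matched within 100 bases. Counting any window of a gene, it was in 21 of 23 genes (91.3%), beside 43.8% of 10117 detected protein-coding genes. The cause of these shifts was not tested. No paired analysis was possible because the labels give 1 group.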

Other observations

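Sterol carriers and receptors outside the cholesterol list were also measured. Of 11 genes that move sterol between membranes, all were detected, with a median of 33.05 TPM. Gramd1a, a carrier at contacts of the endoplasmic reticulum and plasma membrane, had 136 TPM in pool 1 and 121 TPM in pool 2. Stard3nl, which tethers endosomes to the endoplasmic reticulum, had 100.1 and 103 TPM, and the oxysterol-binding relative Osbpl9 58.3 and 58.45 TPM. The lowest, Gramd1b and Gramd1c, had 2.68 and 2.94 TPM in pool 1 and 3.60 and 3.08 TPM in pool 2. All 5 lipoprotein receptor genes were detected, with a median of 35.8 TPM. The receptor chaperone Lrpap1 had 75.0 TPM in pool 1 and 74.2 TPM in pool 2, Lrp1 63.5 and 64.0 TPM, and the reelin receptor Lrp8 33.8 and 37.8 TPM. Scarb1 had 24.6 and 30.3 TPM. Vldlr, the other reelin receptor, had 8.68 and 10.3 TPM, below Lrp8 in both pools.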
